A study of Mus musculus with 25 samples.

Results

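Loss of KEAP1 in squamous cells was set against wild type in the esophagus of mouse pups 7 to 10 days old. The KEAP1-loss pups were KEAP1flox/flox::K5Cre, that is, both Keap1 alleles were floxed and the recombinase Cre was made under the promoter of keratin 5, a keratin of basal squamous cells. The other group was Wild-Type, whose sample titles also carry the word K5Cre, so whether those pups had the transgene is not given in the labels. Each genotype gave 3 RNA-seq libraries, chosen by the genotype label, so the comparison uses 6 of the 25 libraries of the series. A further 3 pup libraries, from NRF2L30F/L30F::K5Cre mice that carry a cancer-derived leucine-to-phenylalanine change of NRF2 at codon 30, shared the fit and serve below as a point of comparison. The RNA was total RNA of the esophagus, so muscle, connective tissue, vessels and nerves contributed to every value although Cre acts in squamous cells. Nothing in the labels ties the libraries to separate animals, so the p-values rest on a spread between libraries that may be technical. In whole tissue, fewer cells of a type and less RNA per cell cannot be told apart.

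KEAP1 is the sensor that holds the transcription factor NRF2 (gene Nfe2l2) in the cytoplasm and delivers it to a CUL3 ubiquitin ligase for destruction. Oxidants and electrophiles modify KEAP1, and NRF2 then enters the nucleus, pairs with a small MAF protein and binds antioxidant response elements near genes for glutathione synthesis, detoxification, NADPH supply and iron handling. The esophagus is lined by a stratified squamous epithelium whose basal cells divide, move upward and flatten. In mice its surface cornifies, and Keap1-null mice are known for a thickened cornified layer in the esophagus and forestomach.

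The core of the antioxidant response element is TGACNNNGC, read as GCNNNGTCA on the other strand. It was searched in RefSeq promoter windows of GRCm38.p6, which run from 250 bases before to 50 bases after a gene's start; the deposited values were made on GRCm39, so the windows give sequence context and no coordinates of the measurements. The core was present in 12.4% of all 32851 windows. Of the named members of the NRF2 lists that were higher by a log2 fold change of at least 3, 26 of 30 had a window and 8 of these held a core. Counted by gene, a core was present in 14% of all 27025 genes with a window, and in 87 of 406 (21.4%) of all tested genes with a window that were higher by a log2 fold change of at least 3. The windows of 6 of them are shown because they carry the core in thioredoxin and NADPH genes whose rises are described below. They are Srxn1 (chr2:152105274-152105573, plus strand), Txnrd1 (chr10:82858956-82859255, plus strand), Prdx1 (chr4:116685349-116685648, plus strand), G6pdx (chrX:74428831-74429130, minus strand), Pgd (chr4:149166033-149166332, minus strand) and Me1 (chr9:86695865-86696164, minus strand). Each is written along its gene's own strand, and the capitals mark the core. The cores of Srxn1 and Pgd lie after the annotated start, at 28 and 3 bases from it. The start of the Pgd window follows a run of t bases that ends in cag, as at the edge of an inner exon. Its core may therefore be coding sequence and is not shown to be part of a promoter.
Srxn1: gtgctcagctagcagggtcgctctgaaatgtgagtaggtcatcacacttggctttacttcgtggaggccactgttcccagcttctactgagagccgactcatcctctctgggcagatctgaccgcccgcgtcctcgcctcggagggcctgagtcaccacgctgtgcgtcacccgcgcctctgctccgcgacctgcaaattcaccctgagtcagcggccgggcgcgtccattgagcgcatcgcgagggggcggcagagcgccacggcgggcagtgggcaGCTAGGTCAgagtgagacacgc
Txnrd1: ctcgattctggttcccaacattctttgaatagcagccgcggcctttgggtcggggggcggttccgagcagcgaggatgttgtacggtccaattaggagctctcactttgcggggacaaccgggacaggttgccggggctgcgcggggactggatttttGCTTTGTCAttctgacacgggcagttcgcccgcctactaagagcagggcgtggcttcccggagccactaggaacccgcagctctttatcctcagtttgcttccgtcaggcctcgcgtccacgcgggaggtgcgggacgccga
Prdx1: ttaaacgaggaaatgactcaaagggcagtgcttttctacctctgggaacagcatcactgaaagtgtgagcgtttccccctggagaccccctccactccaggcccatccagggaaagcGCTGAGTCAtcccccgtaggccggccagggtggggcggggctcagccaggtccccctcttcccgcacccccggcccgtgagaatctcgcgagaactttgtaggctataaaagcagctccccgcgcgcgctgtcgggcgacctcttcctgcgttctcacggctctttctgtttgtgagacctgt
G6pdx: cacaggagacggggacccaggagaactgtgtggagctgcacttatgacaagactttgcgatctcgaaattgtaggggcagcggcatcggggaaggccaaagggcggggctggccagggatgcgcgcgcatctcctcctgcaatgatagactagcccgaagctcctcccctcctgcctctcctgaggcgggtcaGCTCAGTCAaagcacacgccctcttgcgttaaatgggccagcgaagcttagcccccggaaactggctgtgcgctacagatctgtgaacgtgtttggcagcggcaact
Pgd: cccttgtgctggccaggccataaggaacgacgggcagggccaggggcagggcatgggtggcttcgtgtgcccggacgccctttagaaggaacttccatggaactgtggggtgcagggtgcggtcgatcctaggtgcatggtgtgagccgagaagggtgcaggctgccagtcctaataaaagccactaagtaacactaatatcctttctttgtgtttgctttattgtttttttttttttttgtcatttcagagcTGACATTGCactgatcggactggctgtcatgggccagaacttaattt
Me1: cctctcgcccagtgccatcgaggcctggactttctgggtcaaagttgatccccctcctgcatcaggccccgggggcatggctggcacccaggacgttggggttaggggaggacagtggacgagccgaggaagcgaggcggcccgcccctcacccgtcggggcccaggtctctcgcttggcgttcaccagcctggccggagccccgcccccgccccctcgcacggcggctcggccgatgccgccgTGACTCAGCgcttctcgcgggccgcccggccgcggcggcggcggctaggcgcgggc

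Across all tested genes with a window, the core was found in 774 of 4063 genes that were higher with KEAP1 loss (19%), in 489 of 3273 that were lower (14.9%) and in 941 of 6212 that were not called (15.1%). Among the members of the NRF2 lists below, 27 of 117 higher genes (23.1%), 0 of 16 lower genes and 5 of 21 uncalled genes (23.8%) held it. These shares are descriptions of short windows. A match is not a binding site, and more distant elements were not searched.

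Values below are normalised counts, that is, reads divided by the library's size factor. Log2 fold changes are KEAP1 loss over wild type on the log2(normalised count + 1) scale, where the added 1 shrinks the change of low genes, and folds are these values on a linear scale. The 9 pup libraries held 18791978 to 19650122 reads over the listed genes. Keap1 (ENSMUSG00000003308) was measured first because it is the targeted gene. It had 725, 825 and 789 in KEAP1-loss libraries, against 1094, 1060.2 and 1053 in wild-type libraries. Every KEAP1-loss library lay below every wild-type library (log2 fold change -0.46, SE 0.13, adjusted p = 0.012), and reads of all cell types are in these counts. The squamous label was checked with 7 defining genes, all of which were present in every library. The lineage factor Trp63 had 6856, 7552 and 7039 with KEAP1 loss, against 2753, 2002 and 2084 in wild type. Sox2, which specifies the foregut, had 1084, 1051 and 872 with KEAP1 loss, against 869, 678 and 687 in wild type. Pax9, a factor of esophageal differentiation, had 1954, 1527 and 1505 with KEAP1 loss, against 1774, 1437 and 1435 in wild type. Trp63 and Sox2 did not overlap between the groups and Pax9 did. Trp63 was called higher (log2 fold change 1.66, SE 0.11, adjusted p = 9.3e-07), Pax9 was not called (adjusted p = 0.51), and Sox2 was called (log2 fold change 0.43, SE 0.12, adjusted p = 0.012) but not without wild-type library 2 (adjusted p = 0.0503) or with library-total scaling (adjusted p = 0.53); the keratins Krt5, Krt14, Krt4 and Krt13 are described with their family.

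The first principal component of the 6 libraries held 71.5% of the variance and separated the genotypes. Of 21007 genes tested, 10404 were called at an adjusted p below 0.05 (49.5%). KEAP1 loss raised 5528 genes (26.3%) and lowered 4876 (23.2%), and the groups did not overlap for 12823 genes (61.0%). With library-total scaling the split became 3369 higher and 9004 lower, so that 27.2% of calls were higher instead of 53.1%, and the median of all genes moved to -0.38 on the log2 scale, against -0.05. Small changes are therefore read against that shift. Counts of rises and falls in the lists below are likewise read against 26.3% of all tested genes higher and 23.2% lower. Large changes were more often rises: 590 genes were at least 8-fold higher and 272 at least 8-fold lower, and 214 were at least 32-fold higher and 43 at least 32-fold lower.

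Among NRF2 and its partners, 10 of 13 genes rose and 3 fell (median log2 fold change 0.75, against -0.05 over all genes), where 26.3% of all genes rose. Nfe2l2 (ENSMUSG00000015839) had 2929, 2557 and 2053 in KEAP1-loss libraries, against 1261, 1338 and 1305 in wild type. The small MAF Mafg, a DNA-binding partner of NRF2, had 3484, 3412 and 3153 with KEAP1 loss, against 1145, 1306 and 1191 in wild type. Neither gene overlapped between the groups (log2 fold change 0.93, SE 0.17, adjusted p = 0.0013 for Nfe2l2, log2 fold change 1.46, SE 0.07, adjusted p = 9.1e-08 for Mafg). Maff, a second small MAF, rose 7.15-fold (adjusted p = 2.2e-07) and Sqstm1, the autophagy receptor p62 that binds KEAP1, rose 2.15-fold (adjusted p = 3.8e-07). Bach1, a repressor that competes for the same elements, rose 1.68-fold (adjusted p = 5.8e-06). Its relative Bach2 was 1.69-fold lower (adjusted p = 0.004), as was Btrc, a substrate receptor of another ubiquitin ligase for NRF2 (1.75-fold, adjusted p = 0.0011).

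Genes of cystine import and of both steps of glutathione synthesis were called higher. Of 19 genes of this list, 14 rose, 3 fell and 2 were not called (median 3.01). Slc7a11 (ENSMUSG00000027737), the cystine importer, had the largest log2 fold change of the genes named by rule. It had 90752, 88246 and 87175 with KEAP1 loss, against 56.1, 57.8 and 59.04 in wild type (log2 fold change 10.56, SE 0.07, adjusted p = 1.2e-13). Gclc (ENSMUSG00000032350), the catalytic subunit of the first step of glutathione synthesis, had 55546, 53810.2 and 49553 with KEAP1 loss, against 487, 418 and 519 in wild type. Each of the 3 KEAP1-loss libraries exceeded each wild-type library in both genes by more than the whole range within a group. Glutathione synthetase Gss, the second step, rose 19.8-fold (adjusted p = 3.8e-10). Gpx2, an epithelial glutathione peroxidase, had 13612, 15118 and 11747 with KEAP1 loss, against 85.5, 91.6 and 128 in wild type (log2 fold change 7.05, SE 0.15, adjusted p = 7.1e-10), with no overlap. Esd, a formaldehyde-detoxifying esterase that works on a glutathione adduct, rose 15.5-fold (adjusted p = 3.6e-10). The 3 members that fell were peroxidases. Gpx7 and Gpx8 belong to the endoplasmic reticulum, and Gpx7 was 3.84-fold lower (adjusted p = 3.6e-05) and Gpx8 2.17-fold lower (adjusted p = 1.2e-04). Gpx4, which reduces lipid hydroperoxides, was called lower by a small amount (log2 fold change -0.25, SE 0.07, adjusted p = 0.013), and not without wild-type library 2 (adjusted p = 0.059). Plasma glutathione peroxidase Gpx3 had 426, 958 and 677 with KEAP1 loss, against 671, 879 and 805 in wild type, and was not called (adjusted p = 0.43).

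Most genes of a list of thioredoxin, peroxiredoxin and other antioxidant genes were higher. Of 18 genes, 12 rose, 1 fell and 5 were not called (median 0.53, and 0.19 with library-total scaling, where 9 rose and 4 fell). The rises include Cat, Sod1, Sod2 and Osgin1, which do not belong to the thioredoxin system. Srxn1 (ENSMUSG00000032802), sulfiredoxin, which repairs over-oxidised peroxiredoxins and whose window is printed above, had 22973, 19860.4 and 19677 with KEAP1 loss, against 363, 361 and 344 in wild type. Txnrd1, cytosolic thioredoxin reductase, had 10367, 11642 and 10227 with KEAP1 loss, against 1039, 1023 and 975 in wild type. Prdx1, a cytosolic peroxiredoxin, had 31532, 29316 and 28090.5 with KEAP1 loss, against 2119, 2035 and 2217 in wild type. The groups were separate in all 3 genes, and within a group the libraries lay close together (log2 fold change 5.86, SE 0.08, adjusted p = 1.1e-11 for Srxn1, log2 fold change 3.40, SE 0.07, adjusted p = 3.8e-10 for Txnrd1, log2 fold change 3.80, SE 0.10, adjusted p = 1.2e-09 for Prdx1). Catalase (Cat) rose 10.9-fold (adjusted p = 4.6e-09) and thioredoxin itself (Txn1) 5.94-fold (adjusted p = 2.1e-08). Prdx4, a peroxiredoxin of the endoplasmic reticulum, was 1.94-fold lower (adjusted p = 8.3e-05). The thioredoxin inhibitor Txnip had 6691, 9971 and 9654 with KEAP1 loss, against 8992, 9970.3 and 8809 in wild type, and its groups overlapped (adjusted p = 0.68).

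Of 24 glutathione S-transferases, which attach glutathione to electrophiles, 18 rose, 4 fell and 2 were not called (median 2.96). The falls numbered 2 when wild-type library 1 or 3, or any of the KEAP1-loss libraries, was left out. Gstm1 (ENSMUSG00000058135) had 120757, 116449.9 and 98248 with KEAP1 loss, against 823, 786 and 891 in wild type (log2 fold change 7.06, SE 0.09, adjusted p = 1.1e-11). Gsta4, which acts on lipid peroxidation products, had 26389.6, 26890.1 and 23378 with KEAP1 loss, against 3977, 3172 and 3074 in wild type (log2 fold change 2.91, SE 0.10, adjusted p = 8.0e-09). Neither overlapped, and Gstp1 rose 16.1-fold (adjusted p = 1.9e-10). Gsta, Gstm and Gstp genes have close copies whose reads the quantification could have divided, so their separate values are uncertain. The theta-class gene Gstt1 was 2.62-fold lower (adjusted p = 5.2e-04).

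Of 36 reductases, dehydrogenases and other oxidative or conjugating enzymes, 21 rose, 5 fell and 10 were not called (median 1.20). The falls numbered 3 without wild-type library 2 or KEAP1-loss library 3, and 11 with library-total scaling. Nqo1 (ENSMUSG00000003849), the quinone reductase used as a reporter of NRF2 activity, had 13212, 12026 and 11118 with KEAP1 loss, against 72.1, 80.9 and 77.01 in wild type. Ptgr1, which reduces unsaturated aldehydes and ketones, had 44867, 40489 and 37665 with KEAP1 loss, against 418, 404 and 437 in wild type. The aldo-keto reductase Akr1b8 had 9949, 11092 and 10069.7 with KEAP1 loss, against 102, 119 and 122 in wild type. The lowest KEAP1-loss library of each was far above the highest wild-type library (log2 fold change 7.28, SE 0.08, adjusted p = 6.9e-12 for Nqo1, log2 fold change 6.60, SE 0.08, adjusted p = 9.2e-12 for Ptgr1, log2 fold change 6.49, SE 0.08, adjusted p = 1.1e-11 for Akr1b8). Carbonyl reductase Cbr3 rose 45.8-fold (adjusted p = 1.2e-10) and the glucuronosyltransferase Ugt1a7c 29.1-fold (adjusted p = 3.8e-10). The list did not move as a block: Cbr2, known from mouse lung, was 3.07-fold lower (adjusted p = 0.0045), Akr1c14 was 3.45-fold lower (adjusted p = 0.004) and Aldh3a2, a fatty aldehyde dehydrogenase, was not called (-0.04, adjusted p = 0.72). Of 9 ABC exporters, 6 rose, 0 fell and 3 were not called. Abcc4 had 11568, 10508 and 9974 with KEAP1 loss, against 273, 225 and 269 in wild type, and rose 41.7-fold (adjusted p = 1.9e-10). Abcc3 rose 37.6-fold (adjusted p = 2.6e-09) and Abcc1, an exporter of glutathione conjugates, 8.54-fold (adjusted p = 6.3e-10).

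Of 12 NADPH-producing and pentose phosphate enzymes, 10 rose, 1 fell and 1 was not called (median 1.35). G6pdx, the entry enzyme of the pentose phosphate pathway, had 11656, 11541 and 10705 with KEAP1 loss, against 852, 785 and 753 in wild type. Pgd, the next NADPH-yielding enzyme of that pathway, had 13255, 15279 and 12718 with KEAP1 loss, against 1208, 1201 and 1169.7 in wild type. Me1, malic enzyme, had 7176, 7143 and 6881 with KEAP1 loss, against 616, 819 and 871 in wild type. All KEAP1-loss libraries were above all wild-type libraries in these 3 genes, whose windows are among those printed above (log2 fold change 3.83, SE 0.07, adjusted p = 1.9e-10 for G6pdx, log2 fold change 3.52, SE 0.09, adjusted p = 1.2e-09 for Pgd, log2 fold change 3.21, SE 0.13, adjusted p = 3.0e-08 for Me1). Taldo1 and Tkt, of the non-oxidative branch, rose 6.13-fold (adjusted p = 3.0e-09) and 6.34-fold (adjusted p = 2.0e-07). Mitochondrial Idh2 was 1.56-fold lower (adjusted p = 4.2e-04).

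No heme or iron gene was called lower: 9 of 13 rose, 0 fell and 4 were not called (median 0.92). Hmox1, heme oxygenase, had 5719.6, 6180.3 and 5589 with KEAP1 loss, against 190.5, 201 and 231 in wild type, without overlap (log2 fold change 4.81, SE 0.09, adjusted p = 1.7e-10). Biliverdin reductase Blvrb rose 16.2-fold (adjusted p = 3.3e-10), the heme transporter Slc48a1 6.67-fold (adjusted p = 2.0e-09) and the ferritin heavy chain Fth1 3.07-fold (adjusted p = 1.8e-07). Fech, which makes heme, had 1493, 1585 and 1626 with KEAP1 loss, against 1626, 1982 and 1762 in wild type, and was not called (adjusted p = 0.1) except without wild-type library 1 (adjusted p = 0.043) and with library-total scaling (adjusted p = 4.9e-04). All 4 metallothioneins, small metal-binding proteins, rose (median 5.17). Mt4, the form of stratified squamous epithelia, had 6237, 6939 and 6020.4 with KEAP1 loss, against 7.12, 5.34 and 21.4 in wild type. Mt2 had 6868, 9383 and 7159 with KEAP1 loss, against 381, 252 and 292 in wild type. Both were separate between the groups (log2 fold change 9.25, SE 0.41, adjusted p = 9.3e-07 for Mt4, log2 fold change 4.67, SE 0.16, adjusted p = 1.3e-08 for Mt2), and KEAP1-loss library 2 was the highest of its group in both.

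All 32 genes of a list of constitutive proteasome subunits, with the assembly chaperone Psmd5, were called higher, with small changes (median 0.80). With library-total scaling 27 were called higher and none lower (median 0.46). Psma7, of the core particle, had 2293, 2422 and 2246 with KEAP1 loss, against 779.8, 726 and 738 in wild type. Psmd5, an assembly chaperone of the regulatory particle, had 1054, 1045 and 1017 with KEAP1 loss, against 334, 350.4 and 369 in wild type. The groups were separate in both (log2 fold change 1.63, SE 0.06, adjusted p = 1.6e-08 for Psma7, log2 fold change 1.56, SE 0.09, adjusted p = 3.1e-07 for Psmd5). The aryl hydrocarbon receptor list gave 1 rise, of its target Tiparp (581, 817 and 687 with KEAP1 loss, against 315, 359 and 361 in wild type, adjusted p = 1.1e-04), and 1 fall, of the receptor's repressor Ahrr (log2 fold change -2.94, SE 0.60, adjusted p = 0.0024), with 4 of 6 not called.

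**Figure D1:**
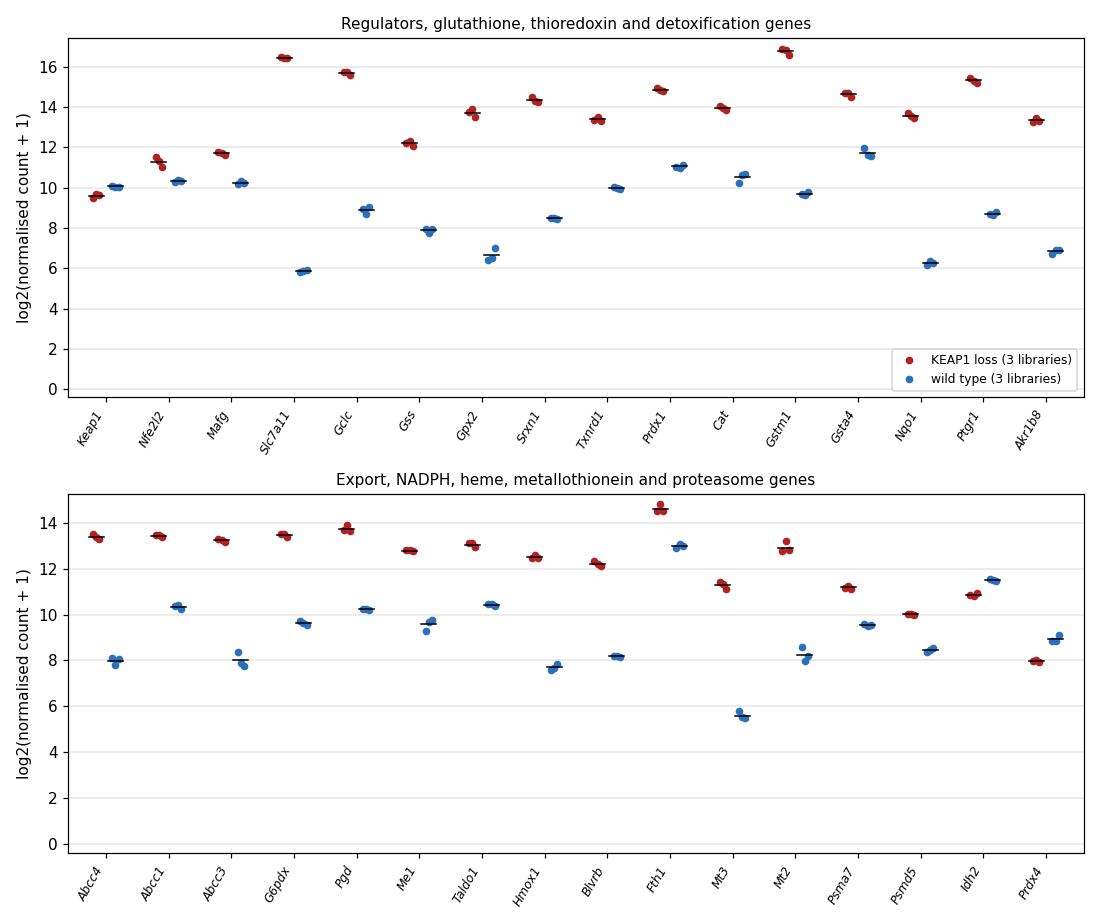
Each point is a library, as log2(normalised count + 1), with KEAP1 loss (red) left of wild type (blue) for each gene, and the bar is the mean of 3 libraries. Slc7a11 shows the widest gap, with a log2 fold change of 10.56, while Keap1, Idh2 and Prdx4 lie lower in KEAP1-loss libraries.

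The keratins of the epithelium changed in both directions. All 4 stress keratins, which wounded or hyperproliferative epithelia make, rose (median 5.42). Krt6b (ENSMUSG00000023041) had 130560.2, 144255 and 128843 with KEAP1 loss, against 894, 745 and 716 in wild type. Krt16 (ENSMUSG00000053797) had 30407, 33636 and 26247 with KEAP1 loss, against 164, 156 and 159 in wild type. Neither overlapped (log2 fold change 7.42, SE 0.09, adjusted p = 1.1e-11 for Krt6b, log2 fold change 7.54, SE 0.11, adjusted p = 2.3e-11 for Krt16). Krt17 had 14601, 13782 and 12559.9 with KEAP1 loss, against 2243, 992 and 946 in wild type, where library 1 was the highest and still below every KEAP1-loss library (log2 fold change 3.41, SE 0.29, adjusted p = 3.3e-05). Krt6a rose 7.72-fold (adjusted p = 7.5e-08); Krt6a and Krt6b are close copies, so the division of reads between them is uncertain.

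Of the 5 basal and suprabasal keratins of the esophagus, 3 rose and 2 fell. The basal keratin Krt14 had 24682, 26057 and 21034 with KEAP1 loss, against 3817, 2418 and 2400.1 in wild type, and its partner Krt5 had 43189, 43372 and 33506 with KEAP1 loss, against 20096, 11481 and 10400.4 in wild type. The other basal keratin, Krt15, had 4270.1, 2444 and 2720.2 with KEAP1 loss, against 33882, 20293 and 18056 in wild type. Wild-type library 1 was the highest of its group in all 3 basal keratins, yet no gene overlapped (log2 fold change 3.08, SE 0.17, adjusted p = 4.7e-07 for Krt14, log2 fold change 1.57, SE 0.23, adjusted p = 5.0e-04 for Krt5, log2 fold change -2.92, SE 0.38, adjusted p = 4.9e-04 for Krt15). The suprabasal pair also parted. Krt13 had 218955, 209889.8 and 195183 with KEAP1 loss, against 55304, 55044 and 54467 in wild type (log2 fold change 1.92, SE 0.08, adjusted p = 4.3e-08). Its partner Krt4 had 18247, 19989 and 20059.7 with KEAP1 loss, against 61419, 57869 and 54846 in wild type (log2 fold change -1.58, SE 0.20, adjusted p = 1.6e-04).

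Of 16 epidermal, hair and simple-epithelium keratins, 6 rose, 2 fell and 8 were not called. Krt78 had 13613, 10040.4 and 10633 with KEAP1 loss, against 335, 438 and 589.5 in wild type (log2 fold change 4.67, SE 0.19, adjusted p = 1.3e-07). The hair keratin Krt84, at most 3.56 in a wild-type library, had 138, 150.1 and 189 with KEAP1 loss (log2 fold change 6.28, SE 0.51, adjusted p = 6.4e-06). The simple-epithelium keratin Krt7 went the other way, with 48.0, 28.2 and 20.5 with KEAP1 loss, against 1803, 1612 and 1384 in wild type (log2 fold change -5.67, SE 0.60, adjusted p = 1.0e-04). Krt19 had 66.1, 388 and 15.1 with KEAP1 loss, against 2842, 1639 and 1432 in wild type; it was called lower in all 6 libraries together (adjusted p = 0.019) but not without wild-type library 1 (log2 fold change -4.35, adjusted p = 0.055) or KEAP1-loss library 1 (log2 fold change -4.57, adjusted p = 0.057). Krt8 had 50.1, 394 and 30.2 with KEAP1 loss, against 1204, 776 and 673 in wild type, and was not called (adjusted p = 0.082) except without KEAP1-loss library 2 (adjusted p = 0.037), without L30F homozygote library 1 (adjusted p = 0.03) or with limma-voom, a weighted test on read counts recovered from the values (adjusted p = 0.028). Leaving out either of those libraries gave 4 falls in the list. KEAP1-loss library 2 was the highest of its group in Krt19 and Krt8.

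Most genes of the cornified envelope, the crosslinked protein shell of a dead squame, rose. Of 15 small proline-rich genes, 13 rose, 1 fell and 1 was not called (median 6.24). Sprr2d had 4819, 10379.5 and 6411 with KEAP1 loss, against 91.7, 85.4 and 92.4 in wild type (log2 fold change 6.24, SE 0.30, adjusted p = 9.0e-07). Sprr2b had 1155, 1933 and 1458 with KEAP1 loss, against 3.56, 0.889 and 2.57 in wild type (log2 fold change 8.89, SE 0.34, adjusted p = 9.5e-08). Both were separate, and KEAP1-loss library 2 was the highest. Sprr2a3 was the exception, with 92.8, 128 and 76.7 with KEAP1 loss, against 785, 779 and 774 in wild type (log2 fold change -3.00, SE 0.59, adjusted p = 0.0039). All 21 late cornified envelope genes rose (median 8.23). Lce3d had 3014, 4434 and 3142 with KEAP1 loss, against 0.890, 0.889 and 5.99 in wild type. Lce1c had 4206, 5376 and 4453 with KEAP1 loss, against 8.01, 16.01 and 27.4 in wild type. Wild-type library 3 was the highest of its group in both, and both groups stayed apart (log2 fold change 10.22, SE 0.48, adjusted p = 8.9e-07 for Lce3d, log2 fold change 8.15, SE 0.35, adjusted p = 5.0e-07 for Lce1c). Members of these families are near-identical copies, so single values are uncertain.

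Of 22 transglutaminases and scaffold proteins, 19 rose, 1 fell and 2 were not called (median 3.33). Tgm1, the transglutaminase that crosslinks the envelope at the membrane, had 12772, 13705 and 12515 with KEAP1 loss, against 1671, 1504 and 1385 in wild type (log2 fold change 3.10, SE 0.08, adjusted p = 1.0e-09). Dmkn, dermokine, a secreted suprabasal protein, had 38489, 49344 and 41340.3 with KEAP1 loss, against 1252, 1451 and 1761 in wild type (log2 fold change 4.86, SE 0.12, adjusted p = 1.3e-09). Neither overlapped. Sbsn, suprabasin, rose 12.1-fold (adjusted p = 1.0e-09), Cnfn, cornifelin, 11.9-fold (adjusted p = 3.2e-08) and Tgm3 5.62-fold (adjusted p = 3.8e-09). Tgm2, the tissue transglutaminase of many cell types, was 2.08-fold lower (adjusted p = 2.1e-05). Flg2, filaggrin 2, had 21.3, 12.4 and 25.9 with KEAP1 loss, against 8.90, 30.2 and 74.4 in wild type, with overlap (adjusted p = 0.55).

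Proteases that cut the corneodesmosomes, and their inhibitors, were mostly higher. Of 26 genes, 21 rose, 3 fell and 2 were not called (median 3.31). Spink5, which encodes the kallikrein inhibitor LEKTI, had 70460.1, 73107 and 65609 with KEAP1 loss, against 1072, 1229 and 1532 in wild type. The kallikrein Klk6 had 774, 1582 and 987 with KEAP1 loss, against 3.56, 5.34 and 5.13 in wild type. Both groups stayed apart (log2 fold change 5.78, SE 0.14, adjusted p = 1.4e-09 for Spink5, log2 fold change 7.57, SE 0.26, adjusted p = 7.9e-09 for Klk6). Klk8 rose 34.6-fold (adjusted p = 1.7e-08), Klk10 4.64-fold (adjusted p = 2.5e-08) and the cystatin Cst6, an inhibitor of cysteine proteases, 39.6-fold (adjusted p = 1.8e-09). The membrane serine protease Tmprss11g had 53.3, 115 and 72.3 with KEAP1 loss, against 1031, 840.5 and 735 in wild type (log2 fold change -3.48, SE 0.46, adjusted p = 3.2e-04), and Tmprss11b was 4.61-fold lower (adjusted p = 1.2e-05). Tmprss11a was not called (-0.08, adjusted p = 0.75). Of 12 clade B serpins, 10 rose, 0 fell and 2 were not called. Serpinb12 had 21946, 24491 and 21291 with KEAP1 loss, against 87.2, 128 and 216 in wild type, with no overlap (log2 fold change 7.38, SE 0.28, adjusted p = 2.0e-07). Serpinb5, maspin, rose 4.46-fold (adjusted p = 3.8e-07).

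Of 23 enzymes of the lipid barrier, 22 rose, 1 fell and 0 were uncalled (median 4.58). Cers3, the synthase of very-long-chain ceramides, had 6160.2, 7784 and 6394 with KEAP1 loss, against 529.7, 448 and 452 in wild type. Cyp4f39, which hydroxylates the fatty acids of acylceramides, had 4661, 4623 and 4322 with KEAP1 loss, against 171, 206 and 228 in wild type. KEAP1-loss libraries were higher throughout (log2 fold change 3.82, SE 0.11, adjusted p = 1.7e-09 for Cers3, log2 fold change 4.49, SE 0.10, adjusted p = 6.2e-10 for Cyp4f39). The cytosolic phospholipases Pla2g4e and Pla2g4f rose 23.99-fold (adjusted p = 2.8e-09) and 11.01-fold (adjusted p = 3.0e-09), and Ugcg, which makes glucosylceramide, 9.28-fold (adjusted p = 2.7e-09). Alox12e, a lipoxygenase of mouse epidermis, was 5.32-fold lower (adjusted p = 9.2e-04).

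Of 30 squamous transcription regulators, 23 rose, 1 fell and 6 were not called (median 1.27). Prdm1, the repressor BLIMP1 of the granular layer, had 2539.9, 3659 and 3219 with KEAP1 loss, against 251, 229.5 and 249.9 in wild type. Klf4, a factor of terminal differentiation, had 10379, 14990.0 and 11897 with KEAP1 loss, against 2536, 2606 and 2443 in wild type. The groups did not overlap in either gene (log2 fold change 3.67, SE 0.12, adjusted p = 4.9e-09 for Prdm1, log2 fold change 2.28, SE 0.11, adjusted p = 1.1e-07 for Klf4), and KEAP1-loss library 2 was highest in both. Grhl1 and Grhl3, regulators of the epidermal barrier, rose 5.29-fold (adjusted p = 1.7e-09) and 4.32-fold (adjusted p = 6.1e-08), and Cebpb 5.88-fold (adjusted p = 2.9e-08). Elf3, an epithelial ETS factor, had 175, 214 and 139 with KEAP1 loss, against 1228, 785 and 752 in wild type, and fell (log2 fold change -2.37, SE 0.37, adjusted p = 8.3e-04). Of 16 Notch pathway genes, 6 rose and 6 fell; with library-total scaling the counts were 1 and 10. Nrarp, a Notch target that limits the signal, rose 2.61-fold (adjusted p = 1.2e-06) and Heyl, another target, was 2.06-fold lower (adjusted p = 1.3e-04).

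Genes of cell contacts moved in both directions. Of 28 desmosome, tight junction and gap junction genes, 20 rose, 5 fell and 3 were not called (median 1.57). Gjb2, the gap junction protein connexin 26, had 33646, 32728 and 29907 with KEAP1 loss, against 686, 641 and 748 in wild type. The desmosomal cadherin Dsc3 had 5566, 5758 and 4650.1 with KEAP1 loss, against 558, 439 and 525 in wild type. The claudin Cldn7 had 11.7, 10.2 and 1.08 with KEAP1 loss, against 460.3, 344 and 239.6 in wild type. Gjb2 and Dsc3 were higher in all KEAP1-loss libraries and Cldn7 was lower in all (log2 fold change 5.54, SE 0.08, adjusted p = 2.0e-11 for Gjb2, log2 fold change 3.39, SE 0.11, adjusted p = 5.3e-09 for Dsc3, log2 fold change -5.66, SE 1.18, adjusted p = 0.0048 for Cldn7). Gja1, connexin 43, rose 13.8-fold (adjusted p = 4.8e-10), and the tight junction gene Cldn8 was 6.80-fold lower (adjusted p = 3.2e-05). Of 16 genes of hemidesmosomes and basement membrane, 2 rose, 4 fell and 10 were not called (median -0.07, close to that of all genes). Over all tested genes 26.3% were called higher and 23.2% lower. With library-total scaling 0 genes of this list rose and 9 fell. The collagen-binding integrin Itga2 was 2.17-fold lower (adjusted p = 0.0014) and the linker plectin (Plec) had 30782, 31284 and 30342 with KEAP1 loss, against 33896, 29469 and 30823 in wild type (adjusted p = 0.81).

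Mucosal surface genes moved in both directions: of 16 mucins and LY6-type surface proteins, 6 rose, 6 fell and 4 were not called (median 0.14, and -0.61 with a gene listed at 0 in wild type at its bound). The largest called fall of the list was that of Muc4, a membrane mucin, which had 131, 39.5 and 31.3 with KEAP1 loss, against 5924, 5156 and 3609 in wild type. Psca, a small GPI-anchored protein of mucosal surfaces, had 444, 774 and 336 with KEAP1 loss, against 5043, 5382 and 4188 in wild type. Both fell without overlap (log2 fold change -6.43, SE 1.24, adjusted p = 0.0046 for Muc4, log2 fold change -3.31, SE 0.36, adjusted p = 1.4e-04 for Psca). Lypd3, a LY6 relative of the cell surface, had 9669, 12821 and 10823 with KEAP1 loss, against 1154, 953 and 866 in wild type (log2 fold change 3.49, SE 0.13, adjusted p = 1.5e-08). Slurp1, a ligand of nicotinic receptors, had 484, 742 and 399.5 with KEAP1 loss, against 10.7, 12.4 and 18.8 in wild type (log2 fold change 5.17, SE 0.32, adjusted p = 8.5e-07). The gel-forming mucin Muc5b had 9.60, 112 and 5.40 with KEAP1 loss, against 1089, 2034 and 409.9 in wild type, and was not called (adjusted p = 0.12) except without L30F homozygote library 1, which shares the fit (adjusted p = 0.0082), and when only the groups compared were fitted (adjusted p = 0.024).

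**Figure D2:**
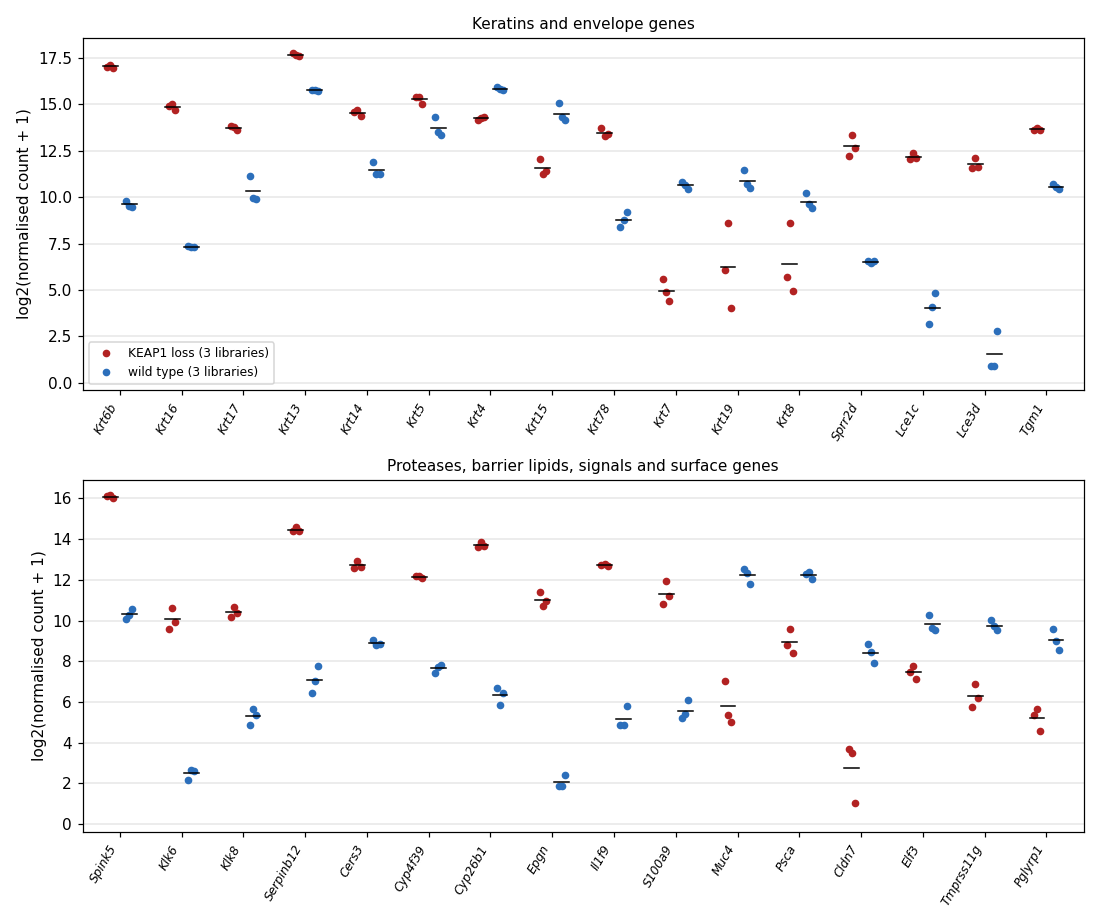
Each point is a library, as log2(normalised count + 1), with KEAP1 loss (red) left of wild type (blue), and the bar is the mean of 3 libraries. Stress keratins, envelope genes, proteases and lipid enzymes lie higher with KEAP1 loss, while Krt4, Krt15, Krt7, Muc4, Psca, Cldn7, Elf3, Tmprss11g and Pglyrp1 lie lower in all 3 KEAP1-loss libraries than in any wild-type library.

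Retinoid genes moved in both directions. Of 18, 9 rose, 7 fell and 2 were not called. Cyp26b1, which degrades retinoic acid, had 12376, 15042 and 12762 with KEAP1 loss, against 101, 56.9 and 85.6 in wild type. The retinoic acid receptor Rarb, itself a target of retinoic acid, had 98.1, 89.2 and 134 with KEAP1 loss, against 373, 373 and 344 in wild type. Both pairs of groups were separate, in opposite directions (log2 fold change 7.38, SE 0.18, adjusted p = 2.4e-09 for Cyp26b1, log2 fold change -1.77, SE 0.18, adjusted p = 2.1e-05 for Rarb). The retinol dehydrogenase Rdh12 rose 26.7-fold (adjusted p = 2.7e-09) and the receptor Rara was 1.80-fold lower (adjusted p = 1.8e-05).

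EGF-type growth factors were mostly higher. Of 16 receptors and ligands, 10 rose, 1 fell and 5 were not called (median 1.29). Epgn, epigen, had 2696, 1685 and 1984 with KEAP1 loss, against 2.67, 2.67 and 4.28 in wild type. Ereg, epiregulin, had 2958, 5407 and 5321 with KEAP1 loss, against 67.7, 81.8 and 81.3 in wild type. Neither ligand overlapped (log2 fold change 8.97, SE 0.23, adjusted p = 1.7e-09 for Epgn, log2 fold change 5.83, SE 0.22, adjusted p = 6.0e-08 for Ereg). Nrg1 rose 7.10-fold (adjusted p = 5.1e-08) and Tgfa 5.70-fold (adjusted p = 4.2e-08). The receptor Erbb4 was 5.23-fold lower (adjusted p = 8.8e-04), while Egfr had 3345, 3396 and 3469 with KEAP1 loss, against 3630.4, 3158 and 3264 in wild type, and was not called (adjusted p = 0.82; called lower with library-total scaling, at -0.32).

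Cytokines of the interleukin 1 and 36 families are alarm signals of barrier cells. In a list of 18 such cytokines and related genes, 13 rose, 0 fell and 5 were not called. The list also holds the receptor gene Il1rl1, and Il17a and Il19 of other cytokine families. Its median was 2.25, and 1.75 with the 2 genes listed at 0 in wild type, Il17a and Il19, at their bound. Il1f9, interleukin 36 gamma, had 6709, 6922 and 6469.8 with KEAP1 loss, against 28.5, 28.5 and 53.9 in wild type. Il1f5, the antagonist of that receptor, had 3072, 3016 and 3038 with KEAP1 loss, against 13.3, 20.5 and 37.6 in wild type. Agonist and antagonist were higher in every KEAP1-loss library (log2 fold change 7.53, SE 0.21, adjusted p = 1.0e-08 for Il1f9, log2 fold change 7.06, SE 0.30, adjusted p = 2.2e-07 for Il1f5). Il1a rose 12.7-fold (adjusted p = 1.1e-08) and Il18 26.3-fold (adjusted p = 4.7e-07). Il1rl1, the interleukin 33 receptor, had 54.4, 18.1 and 33.5 with KEAP1 loss, against 31.2, 45.4 and 35.9 in wild type (adjusted p = 0.7). Of 16 chemokines, 5 rose, 2 fell and 9 were not called, against 26.3% of all tested genes called higher and 23.2% lower. Ccl20, a ligand of the receptor CCR6, had 65.1, 60.9 and 114 with KEAP1 loss, against 0, 3.56 and 0.856 in wild type (log2 fold change 5.26, SE 0.51, adjusted p = 1.5e-05), and the eotaxin Ccl11 rose 4.14-fold (adjusted p = 7.4e-05). Cxcl12, a chemokine of stromal cells, was 1.87-fold lower (adjusted p = 0.01).

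Of 24 calprotectin, S100 and antimicrobial genes, 15 rose, 7 fell and 2 were not called (median 1.57). The falls numbered 4 when any of the wild-type libraries, or KEAP1-loss library 3, was left out. S100a9, a calprotectin subunit, had 1782, 3963 and 2369 with KEAP1 loss, against 36.5, 40.9 and 68.5 in wild type (log2 fold change 5.74, SE 0.37, adjusted p = 6.1e-06). The beta-defensin Defb3 had 67.2, 202 and 167 with KEAP1 loss and was 0 in all 3 wild-type libraries, which makes it at least 55.2-fold higher at a limit of 3 counts per wild-type library. The peptidoglycan recognition proteins split. Pglyrp3 had 783, 829.5 and 788 with KEAP1 loss, against 10.7, 17.8 and 18.8 in wild type (log2 fold change 5.62, SE 0.19, adjusted p = 6.2e-09). Pglyrp1 had 40.5, 49.7 and 22.7 with KEAP1 loss, against 766, 518 and 379.9 in wild type (log2 fold change -3.86, SE 0.64, adjusted p = 0.0013). Reg3g, a secreted lectin of mucosal defence, had 2.13, 0 and 0 with KEAP1 loss, against 704, 611 and 258 in wild type. Its fall was called (adjusted p = 0.035) but depended on each of the 6 libraries, since the adjusted p was 0.069 to 0.099 when any of them was left out. It was also not called with limma-voom (adjusted p = 0.15).

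Interferon-stimulated genes did not share a direction: of 25, 1 rose, 2 fell and 22 were not called (median 0.00). Without KEAP1-loss library 2, 7 were called lower. Of 17 antigen presentation genes, 11 rose, 1 fell and 5 were not called (median 1.08). The class I gene H2-K1 had 1154, 1269.7 and 1091 with KEAP1 loss, against 539, 566 and 524 in wild type (log2 fold change 1.10, SE 0.08, adjusted p = 2.3e-06). The class II gene H2-Aa had 708, 243 and 490.3 with KEAP1 loss, against 78.3, 93.4 and 96.7 in wild type (log2 fold change 2.29, SE 0.37, adjusted p = 8.9e-04). No KEAP1-loss library of either gene fell into the wild-type range, and B2m, the light chain of class I, was 1.41-fold lower (adjusted p = 0.0055).

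Developmental signals were lower more often than higher. Of 28 WNT, BMP and TGF-beta genes, 3 rose, 14 fell and 11 were not called (median -0.50), against 23.2% lower over all genes. Without wild-type library 1, 5 were called higher. Wnt7b, an epithelial WNT, had 1768, 1639 and 1500.0 with KEAP1 loss, against 254, 185 and 209.6 in wild type. Wnt5b had 45.9, 22.6 and 39.96 with KEAP1 loss, against 394, 249.9 and 248 in wild type. These ligands moved in opposite directions with no overlap (log2 fold change 2.92, SE 0.13, adjusted p = 6.1e-08 for Wnt7b, log2 fold change -3.03, SE 0.28, adjusted p = 1.0e-05 for Wnt5b). Tgfb3 was 2.45-fold lower (adjusted p = 4.3e-06), Sfrp2, a secreted WNT modulator, 4.47-fold lower (adjusted p = 4.0e-05) and the WNT co-receptor Lgr5 4.01-fold lower (adjusted p = 3.1e-04). Of 17 hedgehog and FGF genes, 2 rose, 6 fell and 9 were not called, against the same 23.2% of all genes lower. Under library-total scaling 10 were lower. Fgfbp1, a carrier that releases FGFs, had 1910.4, 2030.4 and 1932 with KEAP1 loss, against 386, 324 and 323 in wild type (log2 fold change 2.51, SE 0.11, adjusted p = 5.0e-08). The receptor Fgfr3 had 534, 511 and 431 with KEAP1 loss, against 2468, 1436 and 1323 in wild type (log2 fold change -1.77, SE 0.28, adjusted p = 8.7e-04). Of 16 wound and plasminogen genes, 2 rose and 7 fell. Plau, the urokinase protease, had 1557, 1556 and 1600.4 with KEAP1 loss, against 328, 315 and 302 in wild type (log2 fold change 2.32, SE 0.09, adjusted p = 1.9e-08), whereas the matrix proteins Tnc and Postn were 3.04-fold (adjusted p = 2.2e-04) and 7.92-fold lower (adjusted p = 0.0016).

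Cell cycle genes were lower or not called. Of 33, 0 rose, 23 fell and 10 were not called (median -0.65). Without KEAP1-loss library 3, 2 were called higher. Cdk1, the mitotic kinase, had 273, 261 and 212 with KEAP1 loss, against 419, 389.5 and 408 in wild type. Mcm3, of the replicative helicase, had 364, 442 and 406 with KEAP1 loss, against 722, 640.4 and 644 in wild type. E2f1, which drives S-phase genes, had 134, 132 and 106 with KEAP1 loss, against 265, 249 and 275 in wild type. All KEAP1-loss libraries were below all wild-type libraries in these genes (log2 fold change -0.71, SE 0.12, adjusted p = 6.9e-04 for Cdk1, log2 fold change -0.73, SE 0.13, adjusted p = 0.0012 for Mcm3, log2 fold change -1.08, SE 0.15, adjusted p = 1.6e-04 for E2f1). Cyclin D1 (Ccnd1) overlapped (-0.13, adjusted p = 0.43) while cyclin D2 (Ccnd2) was 2.11-fold lower (adjusted p = 2.0e-04). Of 18 p53 targets and cell cycle inhibitors, 10 rose, 5 fell and 3 were not called (median 0.83). The falls numbered 2 without wild-type library 2 or 3 or KEAP1-loss library 2, and 3 without KEAP1-loss library 1. The inhibitor Cdkn1a had 4914, 6086 and 5885 with KEAP1 loss, against 2779, 2768 and 2449.8 in wild type (log2 fold change 1.07, SE 0.09, adjusted p = 4.9e-06). Cdkn2b rose 4.77-fold (adjusted p = 1.2e-06), and the inhibitor Cdkn1c, an imprinted gene, was 3.80-fold lower (adjusted p = 1.4e-05).

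Lists of metabolism beyond the redox genes were also mostly higher. Of 24 genes of cholesterol synthesis and uptake, 23 rose and 1 fell (median 1.91). Hsd17b7, an enzyme of cholesterol synthesis, had 3052, 4719 and 3772 with KEAP1 loss, against 295, 276 and 283 in wild type, with no overlap (log2 fold change 3.73, SE 0.14, adjusted p = 2.1e-08). Of 20 fatty acid and triglyceride genes, 14 rose, 2 fell and 4 were not called. The elongases Elovl1 and Elovl6 rose 8.63-fold (adjusted p = 2.6e-09) and 6.37-fold (adjusted p = 3.9e-09), and the desaturase Fads1 was 1.65-fold lower (adjusted p = 0.0014). Of 19 glycolysis genes, 11 rose, 1 fell and 7 were not called (median 0.54; 10 higher and 4 lower with library-total scaling). The glucose transporter Slc2a1 had 4421, 5042 and 3834 with KEAP1 loss, against 733, 337 and 424 in wild type (log2 fold change 3.22, SE 0.25, adjusted p = 1.2e-05). Hexokinase 1 (Hk1) rose 7.44-fold (adjusted p = 1.7e-09), and lactate dehydrogenase A (Ldha) overlapped (-0.04, adjusted p = 0.75). Of 26 genes of ATF4, serine synthesis and the unfolded protein response, 18 rose, 1 fell and 7 were not called. The neutral amino acid transporter Slc1a4 had 10177, 10554 and 7992 with KEAP1 loss, against 747, 466 and 544 in wild type (log2 fold change 4.05, SE 0.17, adjusted p = 8.0e-08), and Phgdh, the first step of serine synthesis, rose 3.73-fold (adjusted p = 7.6e-07).

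Of 17 immediate early genes, which respond within minutes to growth signals and to handling of tissue, 12 rose, 1 fell and 4 were not called. Fosl1, the AP-1 subunit FRA1, had 459, 529 and 414 with KEAP1 loss, against 2.67, 1.78 and 6.84 in wild type (log2 fold change 6.76, SE 0.32, adjusted p = 1.1e-07). Ier3 rose 4.90-fold (adjusted p = 2.2e-08) and Myc 2.55-fold (adjusted p = 4.3e-06). The time from death to extraction is not in the labels, and its part in the result was not tested.

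**Figure D3:**
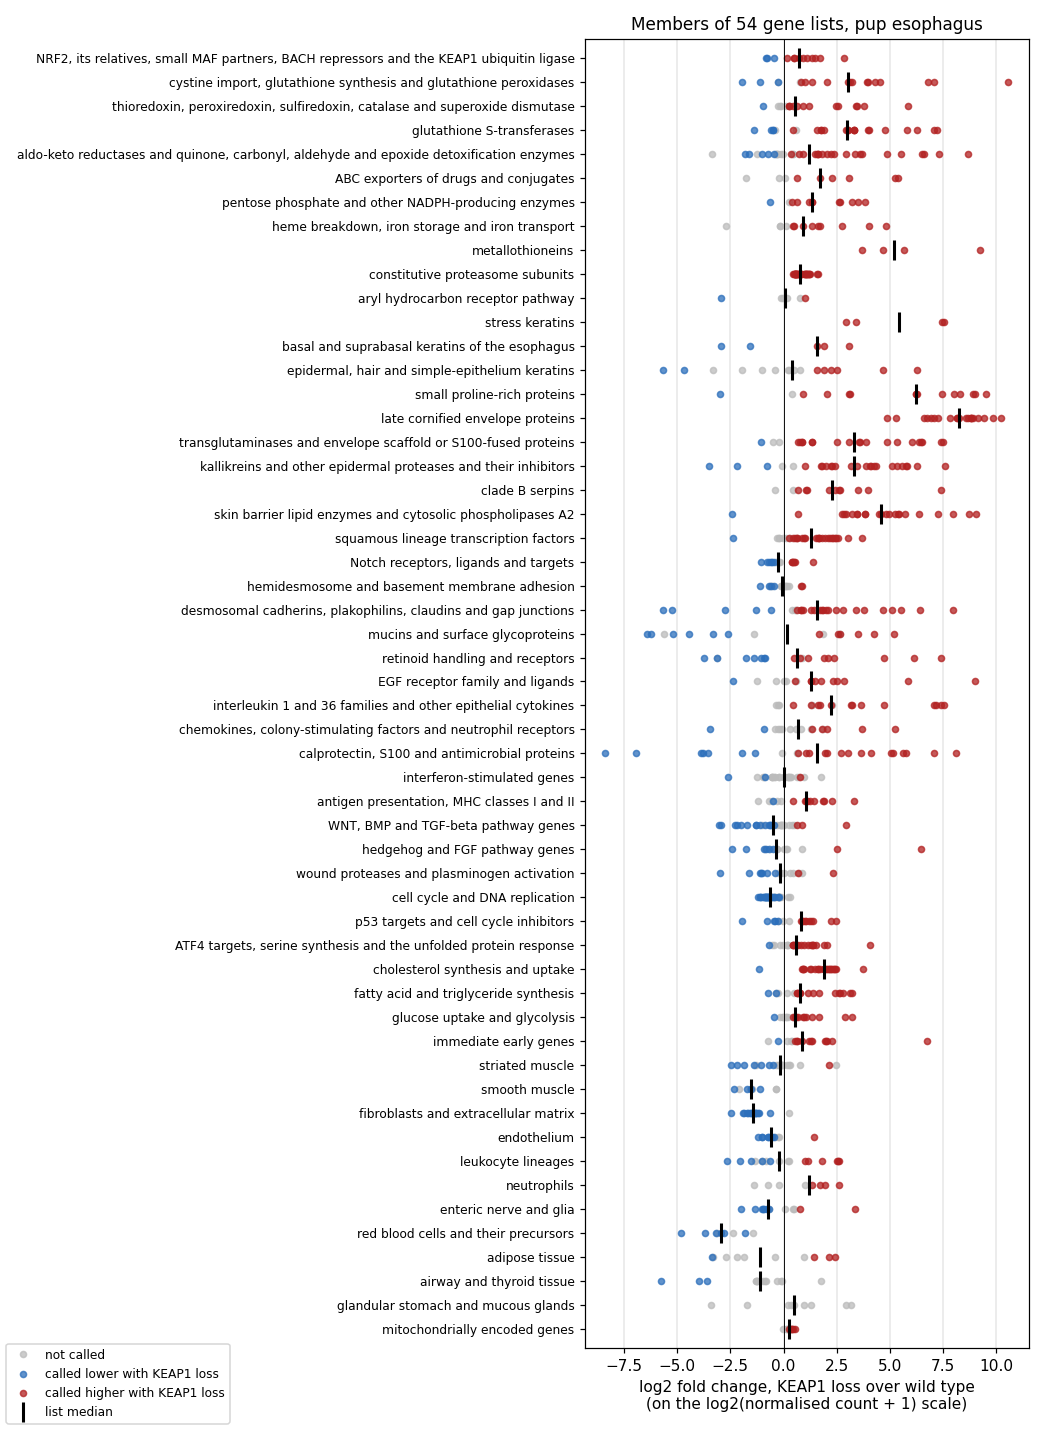
Each point is a tested member of a list, placed by its log2 fold change of KEAP1 loss over wild type, coloured by its call, and the black bar is the list median. Late cornified envelope genes have a median of 8.23, all 32 proteasome genes sit close to their median of 0.80, and the red blood cell list lies wholly to the left of 0.

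Genes of other cell types shifted with genotype, and their part in the results above was not tested. Of 16 fibroblast and matrix genes, 0 rose, 15 fell and 1 was not called (median -1.43). Their summed normalised count was 250239, 144210.4 and 212749 in KEAP1-loss libraries, against 583012, 621014 and 595867 in wild type. The collagen VI chain Col6a1 had 9425, 7079 and 8601 with KEAP1 loss, against 20432, 19985 and 20684 in wild type (log2 fold change -1.29, SE 0.10, adjusted p = 3.0e-06). Fbn1, fibrillin 1, was 2.80-fold lower (adjusted p = 1.5e-05), while Pdgfra, a receptor of fibroblasts, had 3331, 4426 and 4193 with KEAP1 loss, against 3406, 3381 and 3145 in wild type, and was not called (adjusted p = 0.16) except without KEAP1-loss library 1 (adjusted p = 0.048).

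Smooth muscle summed to 19418, 28547 and 21855 with KEAP1 loss, against 62439, 60898 and 61589 in wild type, and 4 of 9 genes fell, with none higher. That count was 9 without L30F homozygote library 2 and 7 without L30F homozygote library 3, which share the fit. Striated muscle did not move as a whole: its sum was 954133, 917441 and 1105004 with KEAP1 loss, against 814769.7, 892839.7 and 914788 in wild type. Of its 23 genes, 1 rose, 7 fell and 15 were not called, against 23.2% of all tested genes called lower. Under library-total scaling 15 were lower. Within striated muscle the myosins of different ages parted. The adult fast myosin Myh1 had 81801, 102151 and 97705 with KEAP1 loss, against 20496, 20841 and 22768 in wild type. The embryonic myosin Myh3 had 2046, 2876 and 3933 with KEAP1 loss, against 16371, 16556 and 15099.5 in wild type. Myog, the differentiation factor myogenin, had 439.5, 348 and 506 with KEAP1 loss, against 1586, 1584 and 1505 in wild type. Myh1 was higher in all KEAP1-loss libraries, and Myh3 and Myog were lower in all (log2 fold change 2.13, SE 0.20, adjusted p = 2.5e-05 for Myh1, log2 fold change -2.49, SE 0.43, adjusted p = 0.0024 for Myh3, log2 fold change -1.87, SE 0.17, adjusted p = 1.5e-05 for Myog).

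Of 9 red blood cell genes, 6 fell and 3 were not called (median -2.93), and the sum was 10797, 5859.7 and 9900.4 with KEAP1 loss, against 76128, 144358 and 62120.4 in wild type. The beta-globin Hbb-bt had 522, 236 and 376 with KEAP1 loss, against 3827, 7361 and 3400.4 in wild type, without overlap (log2 fold change -3.67, SE 0.68, adjusted p = 0.0039); globin genes are close copies and their separate values are uncertain. Endothelial genes gave 1 rise and 8 falls among 12, with sums of 7512 to 8811 with KEAP1 loss, against 10530.5 to 11641 in wild type. The lymphatic factor Prox1 was 2.29-fold lower (adjusted p = 1.9e-04) and Vwf, von Willebrand factor, had 1599, 1499 and 1477 with KEAP1 loss, against 427, 663 and 654 in wild type (log2 fold change 1.42, SE 0.18, adjusted p = 1.7e-04). Of 14 nerve and glia genes, 2 rose and 7 fell. The receptor Ret of enteric neurons was 2.54-fold lower (adjusted p = 3.7e-05), whereas the tubulin Tubb3, used as a neuron marker, had 1579, 1680.5 and 1199.7 with KEAP1 loss, against 139.8, 143 and 149 in wild type (log2 fold change 3.35, SE 0.13, adjusted p = 1.5e-08).

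Leukocyte lineage genes gave 6 rises and 5 falls among 17, where 26.3% of all tested genes were called higher and 23.2% lower. Their sums were 1799 to 2667 with KEAP1 loss, against 3336 to 3349 in wild type. The falls numbered 3 without wild-type library 1 or 3. The macrophage glycoprotein Cd68 rose 2.03-fold (adjusted p = 2.6e-04), and the mast cell protease Cpa3 had 4.27, 4.51 and 5.40 with KEAP1 loss, against 41.8, 28.5 and 34.2 in wild type (log2 fold change -2.63, SE 0.40, adjusted p = 3.7e-04). Neutrophil genes gave 4 rises among 8, and 2 without KEAP1-loss library 2, against the same 26.3% of all tested genes. Cxcr2, the receptor for neutrophil chemokines, had 144, 173 and 159 with KEAP1 loss, against 57.9, 52.5 and 74.4 in wild type (log2 fold change 1.36, SE 0.17, adjusted p = 9.2e-05). Neutrophil marker sums were 500.0 to 568 with KEAP1 loss, against 413 to 484 in wild type.

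Glandular stomach genes summed to 48.0, 5763 and 57.2 with KEAP1 loss, against 392, 447 and 78.7 in wild type, so KEAP1-loss library 2 alone was high, and 0 of 9 tested genes were called higher and 0 lower; without it, 2 were called lower. In wild type, the stomach genes Atp4b and Gast were at 0 in every library. Without that library 4938 genes were higher and 4046 lower, against 5528 and 4876 with it. Airway and thyroid genes summed to 52.3, 104 and 69.1 with KEAP1 loss, against 504, 489 and 264 in wild type. Of 14 such genes, 0 rose, 3 fell and 11 were not called, against 23.2% of all tested genes called lower. The cilia motor gene Dnah5 had 1.07, 2.26 and 4.32 with KEAP1 loss, against 291, 217 and 88.1 in wild type (log2 fold change -5.76, SE 1.07, adjusted p = 0.0023), and Foxj1, which specifies motile cilia, was 15.4-fold lower (adjusted p = 0.0054). Adipose genes summed to 9128, 14243 and 13316 with KEAP1 loss, against 4459, 11768 and 7835 in wild type, which overlap. Mitochondrially encoded genes gave 5 rises among 13, and 8 without wild-type library 2, but with library-total scaling none was called in either direction.

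**Figure D4:**
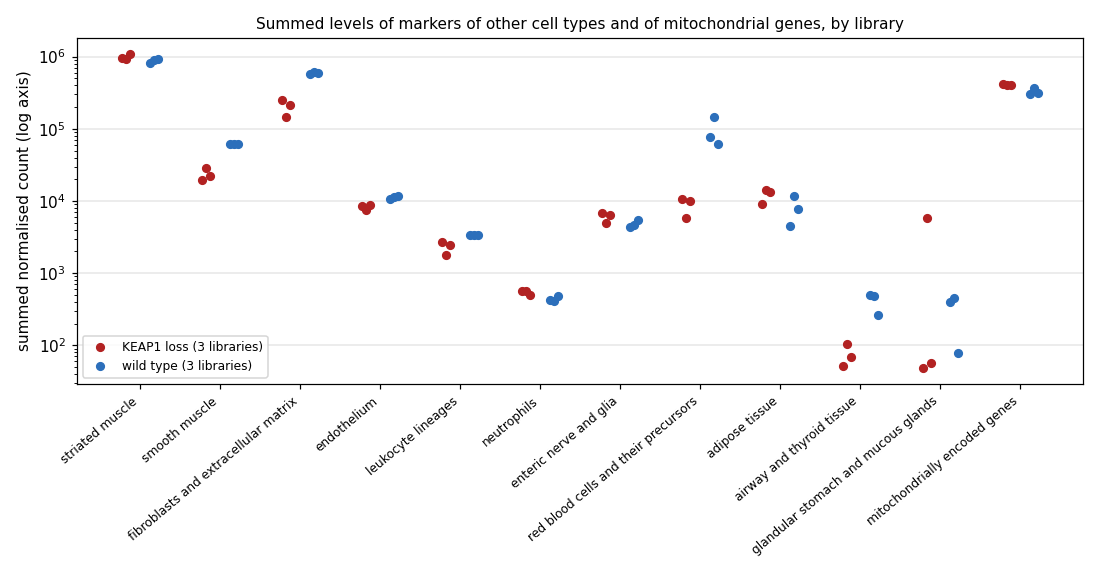
Each point is the summed normalised count of a marker list in a library, on a log axis, with KEAP1 loss (red) left of wild type (blue). Fibroblast, smooth muscle, endothelial, leukocyte, red blood cell, and airway and thyroid sums are lower in all KEAP1-loss libraries. Neutrophil and mitochondrial sums are higher in all of them, as is the striated muscle sum by a narrow margin. The stomach sum of KEAP1-loss library 2 stands apart from the other libraries.

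The largest changes included genes outside the lists. Ces1h, a carboxylesterase that hydrolyses ester bonds of xenobiotics, had 11023, 8838 and 9875 with KEAP1 loss, against 10.7, 21.4 and 16.3 in wild type (log2 fold change 9.22, SE 0.24, adjusted p = 9.1e-09). Ly6m, of the LY6 surface protein family, had 854, 1288 and 1098 with KEAP1 loss, against 0, 0.889 and 0.856 in wild type (log2 fold change 9.46, SE 0.27, adjusted p = 2.1e-09). Rprl3, a ribonuclease P RNA-like gene, had 828, 509 and 611 with KEAP1 loss and was 0 in all wild-type libraries, which makes it at least 246.5-fold higher at 3 counts per wild-type library. Among the falls, Rpl34-ps1, a ribosomal protein pseudogene, was 0 in all KEAP1-loss libraries, against 129, 275 and 294 in wild type, at least 71.0-fold lower at 3 counts per KEAP1-loss library. Ifit1bl1, a relative of the IFIT interferon-response genes, had 25.6, 14.7 and 2.16 with KEAP1 loss, against 1185, 883 and 870.2 in wild type (log2 fold change -6.47, SE 0.89, adjusted p = 4.7e-04). Snx31, a sorting nexin, had 1.07, 0 and 0 with KEAP1 loss, against 124, 126 and 101 in wild type (log2 fold change -6.53, SE 0.85, adjusted p = 1.5e-04). All 6 were separate between the groups, which the rule for naming the largest changes required. Rprl3 and Rpl34-ps1 reached the test only through the group where they were high. Their reads are also uncertain because near-identical copies exist.

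KEAP1 loss was also set directly against L30F homozygotes of the same age, where NRF2 is altered and KEAP1 is not. Keap1 itself was called lower than in L30F homozygotes (log2 fold change -0.56, SE 0.13, adjusted p = 0.042). That call was lost in 8 of 9 fits with a library left out. Of 21007 genes, 875 were called (4.17%), 505 higher (2.40%) and 370 lower (1.76%) with KEAP1 loss. These counts rested on single libraries: without KEAP1-loss library 2 they were 21 and 25, without L30F homozygote library 2 28 and 33, and without wild-type library 2, which enters through the shared spread, 67 and 54. They were 157 and 88 without wild-type library 3, 75 and 91 without KEAP1-loss library 1, and 187 and 192 without KEAP1-loss library 3. Without L30F homozygote library 1, which stood apart on the second component and whose airway and thyroid markers summed to 33103, they were 93 and 71. Krt6b had 130560.2, 144255 and 128843 with KEAP1 loss, against 72276, 82045 and 76074 in L30F homozygotes. Akr1b8 had 9949, 11092 and 10069.7 with KEAP1 loss, against 6386, 6536 and 5929 in L30F homozygotes. Tgm1 had 12772, 13705 and 12515 with KEAP1 loss, against 8679, 8644 and 8347 in L30F homozygotes. All were higher in every KEAP1-loss library (log2 fold change 0.81, SE 0.09, adjusted p = 0.0088 for Krt6b, log2 fold change 0.72, SE 0.08, adjusted p = 0.0088 for Akr1b8, log2 fold change 0.60, SE 0.08, adjusted p = 0.01 for Tgm1), and remained called when any library was left out. These genes were shown after their values were seen. Other genes printed here lost this call when some libraries were left out, as Gstp1 did in 5 of 9 fits and Hk1 in 9 of 9.

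Mfap5, a microfibril protein of connective tissue, had 926, 669 and 936 with KEAP1 loss, against 1837, 1587 and 1707 in L30F homozygotes (log2 fold change -1.03, SE 0.12, adjusted p = 0.0088). Nptx2, neuronal pentraxin 2, had 30.9, 55.3 and 31.3 with KEAP1 loss, against 227, 151 and 134 in L30F homozygotes (log2 fold change -2.11, SE 0.27, adjusted p = 0.01). Both were lower in all KEAP1-loss libraries, and both kept their calls when any library was left out. Mfap5, unlike Nptx2, was shown here after its values were seen. Rprl3 was at least 216.1-fold higher with KEAP1 loss than in L30F homozygotes, where it was also 0 in all libraries, at 3 counts per library. Some of the largest rises against wild type were not called here. Slc7a11 had 90752, 88246 and 87175 with KEAP1 loss, against 66951, 79586 and 74019.7 in L30F homozygotes (log2 fold change 0.27, SE 0.07, adjusted p = 0.059). Gclc had 55546, 53810.2 and 49553 with KEAP1 loss, against 52864, 51736 and 47320.5 in L30F homozygotes (log2 fold change 0.06, SE 0.09, adjusted p = 0.72). A p above the threshold does not show that their levels are the same.

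**Figure D5:**
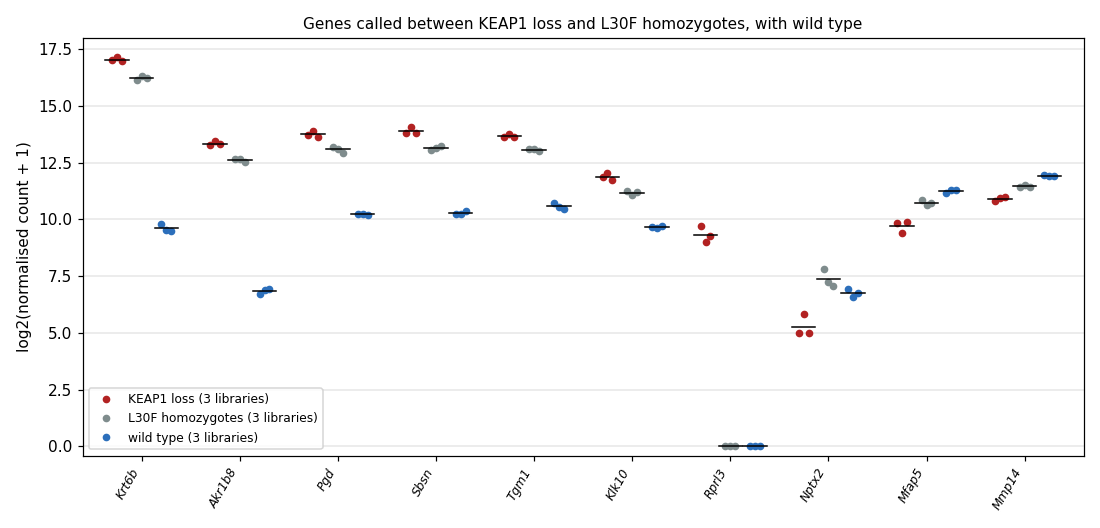
Each point is a library, as log2(normalised count + 1), with KEAP1 loss (red), L30F homozygotes (grey) and wild type (blue) from left to right for each gene, and the bar is the mean of 3 libraries. Krt6b, Akr1b8, Pgd, Sbsn, Tgm1 and Klk10 are highest with KEAP1 loss, Nptx2, Mfap5 and Mmp14 lowest with KEAP1 loss, and Rprl3 was 0 in both other genotypes.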

How the data were processed

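RNA-seq of total RNA from whole pup esophagus was deposited as one table of 21106 genes by library. Libraries were made with a directional kit, per the labels' protocols, and quantified with Salmon on GRCm39, per the submitters' processing notes; no version is named there. The authors deposited log2(n + 4) values, where n is the normalised count. Divided by each library's step, the deposited values gave whole reads for 100% of values up to 1000 reads (within 0.1), and the size factors differed from median-of-ratios factors by at most 0.00196 of their value; which tool made them is not given in the sources used here. No per-sample column of the pup table was left unused.

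The values were turned back into normalised counts, and log2(normalised count + 1) was tested with limma 3.58.1 (trend and robust, statmod 1.5.0, R 4.3.3) in one fit of all 9 pup libraries. Genes with at least 1 normalised count in at least 3 libraries were tested (21007), p-values were Benjamini-Hochberg adjusted over them, and calls are adjusted p below 0.05. Sums and figures were made with Python.

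Genes were named by rule: Keap1, Nfe2l2 and Nqo1; the 12 largest rises and 12 largest falls with a group mean of at least 100 and no overlap; of each of 54 gene lists, up to 5 called members with the smallest adjusted p in the main direction, up to 2 in the other, and the highest uncalled member; and the 5 largest rises and falls against L30F homozygotes. The text gives a subset of them, and some are not reported here. Trp63, Sox2 and Gpx4 fall outside the rule and were chosen after their values were seen. The lists and members were chosen with earlier results of these data known. The series' other samples are not analysed here.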

Additional observations from a re-analysis of the deposited data

How the results depend on the processing

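The call of KEAP1 loss against wild type was recomputed with another offset, filter, scaling, test, fit and with each pup library left out. The 10404 calls stayed within 1.5 times in every alternative except a test against a 2-fold change, which left 1799 (1351 higher, 448 lower); leaving out a library gave 8788 to 10593. Of 187 called genes printed here, 4 lost their call under any of the other 18 alternatives (Gpx4, Krt19, Reg3g and Sox2, each described above), and 48 lost it in the 2-fold test. Rprl3 and Rpl34-ps1 failed the filter when a library of the group where they were high was left out. Their calls could not be checked in those fits. With library-total scaling, where the median of all genes also shifted, Egfr turned to -0.32 and was called lower, as were Aldh3a2 (-0.38), Ccnd1 (-0.47), Fech (-0.53), Ldha (-0.38) and Plec (-0.37).

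The 875 calls against L30F homozygotes were less stable. They were 3 in the 2-fold test, 185 when only the groups compared were fitted and 222 with the replicate block; leaving out a library gave 46 to 924. With library-total scaling 111 were higher and 754 lower, with TMM scaling 371 and 407, and with limma-voom 610 and 309, against 505 and 370. The cause of these shifts was not tested.

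Libraries share replicate numbers, which the labels do not tie to pairs, and the main fit did not pair them. Deviations of same-numbered KEAP1-loss and wild-type libraries correlated at 0.070, 0.061 and 0.219. Differently numbered ones correlated at -0.118 to 0.046, below each same-numbered value. Deviations within a group of 3 libraries cancel out, so these values constrain one another. Between KEAP1-loss and L30F homozygote libraries, same-numbered values were 0.052, 0.052 and -0.104. Differently numbered ones there were -0.122 to 0.089, so the pattern was not seen in that pair of groups. A structure shared by equal numbers of KEAP1-loss and wild-type libraries may be present, and its source was not tested. With the replicate block 10318 genes were called against wild type, and smooth muscle gave 8 falls instead of 4. Precision is limited by 3 libraries a group, and genes with few reads carry large errors.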
